A study of Sus scrofa with 20 samples.

Results

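The genes described here carry symbols of 10 families that are named for the sperm tail, the cilium or the developing sperm cell: DNAH, DNAI, DNAL, TEKT, ODF, CATSPER, SPAG, SPATA, CFAP and ROPN1. Members were chosen by symbol, with earlier results of these data known. A reference ID was taken when its RefSeq accession mapped to a pig gene symbol starting with one of these names, and this gave 25 IDs for 25 genes, of 21755 reference IDs in all and 6654 with a symbol. The members came from 6 of the 10 families, with 13 SPATA, 4 SPAG, 3 ODF, 2 TEKT, 2 CATSPER and 1 DNAL gene. No reference ID was mapped to a DNAH, DNAI, CFAP or ROPN1 symbol, so these names have no member here. Genes of these families that are listed under other symbols are missed by the rule.

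RNA-Seq had been carried out on testis and liver of boars with divergent androstenone levels. The boars were 116 days old, came from a cross of Duroc with F2 animals (Leicoma x German Landrace, crossed with Large White) and were slaughtered without any treatment named in the labels. The study's methods assign boars to a low or a high group by androstenone in fat, the testicular steroid behind boar taint, and state that testis and liver were taken from the same animals. There were 5 low and 5 high androstenone boars, with 1 library per boar and tissue, which gives 20 libraries.

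The axoneme of a sperm tail or a motile cilium is a ring of doublet microtubules around a central pair. Dynein arms slide the doublets against each other, tektins lie inside them, and the central apparatus tunes the beat. Sperm add structures that cilia lack, such as outer dense fibres along the tail, a sheath of mitochondria in the midpiece and the CatSper calcium channel of the tail membrane. These parts are made in spermatids, late in spermatogenesis. In bulk tissue, fewer cells of a type and less RNA per cell cannot be told apart. The SPAG and SPATA names record association with sperm or spermatogenesis rather than a structure, and several of these genes act in dividing or resting cells as well.

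The testis libraries held 6161397 to 15975386 counts and the liver libraries 5796973 to 26783002. Levels are given as CPM, counts in every 1000000 of a library, scaled by the TMM method over all 20 libraries, which corrects for a few abundant RNAs taking up a library. On this scale a gene needed 0.13 to 0.357 CPM in a testis, or 0.218 to 0.673 CPM in a liver, to reach 3 counts, and below that a level could not be told from 0 by counting error alone. Hepatocyte and spermatid markers followed the labelled tissues, and other lists did so in part. The 13 measured hepatocyte markers summed to between 41.8 and 123 CPM in the testes and to between 132700 and 389100 in the livers, and all 13 were called higher in liver. Of the spermatid markers, 18 of 18 were called higher in testis.

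Single libraries stood apart before any groups were compared. Testis low replicate 2 had a summed level of the 25 members of 3174 CPM, while the other 9 testes lay between 6236 and 9677. The 18 spermatid markers summed to 3230 CPM in this testis and to between 6354 and 9246 CPM in the others. Liver low replicate 1 carried counts on 24 of the 25 members, against 13 to 19 in the other livers. Values that moved by over 1.5 times without one of these libraries are given with and without it.

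Testis and liver were compared to ask in which tissue the families were expressed. All 25 members were called higher in testis by edgeR's quasi-likelihood test, with adjusted p-values (Benjamini-Hochberg) up to 0.00165, where a call needed an adjusted p below 0.05 together with a 1.5-fold difference. Of all 19065 tested IDs, 43.5% were called higher in testis and 32.2% higher in liver by the same rule. Higher in testis were thus 57.4% of the called IDs, and 76% when library size was the only scale. The median log2 difference between testis and liver was 8.56 over the members (8.08 with SPATA25, which had no liver counts, at its lower bound) and 0.31 over all tested IDs. In 24 of the 25 members, every testis lay above every liver. The share of all tested IDs separated in this way was not computed, so this count cannot be read as particular to the members. The summed member level was between 3174 and 9677 CPM in the testes and 51.7 to 75.6 CPM in the livers, and the members took 0.455% to 1.32% of all counts of a testis. The difference was over 100-fold in 17 members, and this holds with the members of at most 3 liver counts taken at their lowest bound. The share of all tested IDs over 100-fold was not computed either.

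**Figure D1:**
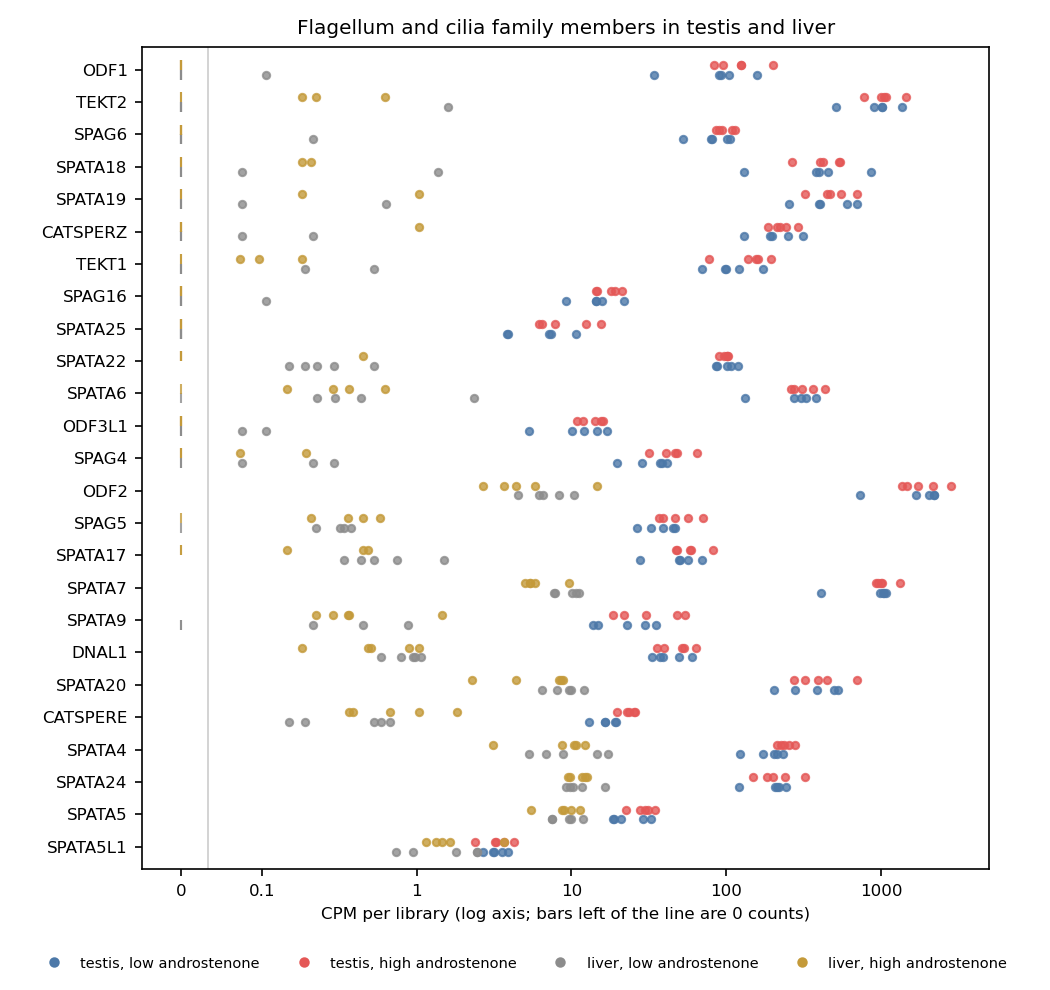
Level of each of the 25 members in every library, in CPM on a log axis, with points for the 10 testes and 10 livers coloured by androstenone group and small bars at the left for libraries with 0 counts; members are ordered by the log2 difference between the tissues. The testes lie right of all livers in every line except that of SPATA5L1 at the bottom, where the 2 tissues overlap.

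Among the members that build the axoneme itself, both tektins were nearly absent from liver. TEKT2 (XM_003127787.1), a tektin of the doublet microtubules, had a lowest, median and highest level of 512, 1011 and 1463 CPM in testis and of 0, 0 and 1.60 CPM in liver, a log2 difference of 12.11 (SE 0.62). TEKT1 (XM_003131872.1), another tektin, reached 69.6, 130.0 and 195 CPM in testis and at most 0.532 CPM in liver, with a log2 difference of 10.12 (SE 0.41). Both had their highest liver value in liver low replicate 1, and without this liver the log2 differences were 14.63 for TEKT2 and 11.07 for TEKT1, from 5 and 4 liver counts. DNAL1 (XM_001926259.1), a light chain of the outer dynein arm, differed from the tektins in that all 10 livers had counts. DNAL1 lay at 33.5, 44.7 and 63.5 CPM in testis and at 0.183, 0.845 and 1.06 CPM in liver, and its log2 difference was 5.99 (SE 0.23).

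SPAG6 and SPAG16 are proteins of the central apparatus. SPAG6 (NM_001159312.1) was measured at 52.9, 92.1 and 114 CPM in testis, while the 10 livers together gave 2 counts, both in liver low replicate 1. The ratio of the pooled levels was 3715, with a counting interval from 1028 to 30680. SPAG16 (XM_001924180.1) lay at 9.30, 15.2 and 21.8 CPM in testis with 1 count in the livers, and its ratio was 1329 with a counting interval from 238 to 52530. That 1 count also lay in liver low replicate 1. Without this liver no count remained, and SPAG6 was at least 2195-fold and SPAG16 at least 393-fold higher in testis, with the 3-count floor over the other 9 livers. The testes did not overlap with the livers in either gene.

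The outer dense fibre family differed among its members in what remained in liver. ODF1 (NM_214255.1), a main component of the fibres, was at 34.2, 100.0 and 202 CPM in testis and had 1 count in liver, a ratio of 9490 with a counting interval from 1703 to 374900, and at least 2803-fold higher in testis without liver low replicate 1, which held this count. ODF3L1 (XM_001929275.1) lay at 5.34, 13.1 and 17.0 CPM in testis and had 2 counts in liver, a ratio of 513 with an interval from 142 to 4240, or 909 with an interval from 163 to 35940 without liver low replicate 1. ODF2 (NM_001193447.1), which also sits on the appendages of centrioles in other cells, was present in all 20 libraries. ODF2 reached 731, 1883 and 2820 CPM in testis and 2.69, 6.01 and 14.7 CPM in liver, a log2 difference of 8.08 (SE 0.37). Liver high replicate 3 held the highest of these liver values, with 202 of the 609 counts.

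The CatSper members were auxiliary subunits of the channel. CATSPERZ (XM_003122571.1) lay at 131, 218 and 315 CPM in testis and had counts in 3 livers, of which liver high replicate 2 had the highest value of 1.04 CPM. Its log2 difference was 11.02 (SE 0.47), and without that liver 3 counts and a pooled ratio of 5822 remained, with a counting interval from 1992 to 28230. CATSPERE (XM_003130564.1) lay at 12.9, 19.5 and 25.9 CPM in testis and at 0.149, 0.560 and 1.81 CPM in liver, with counts in all 10 livers, of which liver high replicate 3 held 25 of 57. The log2 difference of CATSPERE was 4.97 (SE 0.27).

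Among the SPAG and SPATA genes with other tasks, SPAG4 (XM_003134418.1), a SUN-domain protein, was at 19.9, 39.9 and 65.1 CPM in testis and at most 0.294 CPM in liver (log2 difference 8.56, SE 0.34). SPAG5 (NM_001159311.1), known as astrin, a protein of the mitotic spindle, was at 26.4, 42.2 and 71.3 CPM in testis and at most 0.580 CPM in liver (log2 difference 7.15, SE 0.29). Both genes had no liver value above the lowest testis value. SPATA6 (NM_001177917.1), needed for the joint between sperm head and tail, ranged over 132 to 435 CPM in testis and over 0 to 2.34 CPM in liver, where 22 of 41 counts came from liver low replicate 1. SPATA17 (NM_001184753.1) lay between 27.8 and 82.9 CPM in testis and had at most 1.52 CPM in liver. SPATA6 had a log2 difference of 9.43 (SE 0.44), or 10.13 without that liver, and SPATA17 of 7.07 (SE 0.31).

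SPATA18 and SPATA19 are linked to mitochondria, SPATA19 to those of the sperm midpiece. SPATA19 (NM_001177920.1) was at 255, 461 and 698 CPM in testis, with counts in 4 of the livers at no more than 1.04 CPM, a log2 difference of 11.44 (SE 0.54). It was 12.50 without liver low replicate 1 and 12.52 without liver high replicate 2. SPATA18 (NM_001177915.1) was at 130, 415 and 869 CPM in testis and at most 1.38 CPM in liver, where liver low replicate 1 held 13 of the 16 counts, a log2 difference of 11.57 (SE 0.60). From the 3 counts of the other livers the pooled ratio of SPATA18 was 10790, with a counting interval from 3693 to 52330. SPATA22 (NM_001177921.1), a protein of meiotic recombination, lay in a narrow range of 86.2 to 119 CPM in testis and reached at most 0.532 CPM in liver (log2 difference 9.52, SE 0.31, or 10.82 without liver high replicate 4). SPATA9 (NM_001177924.1) was at 13.8, 26.3 and 53.9 CPM in testis and at most 1.46 CPM in liver (log2 difference 6.13, SE 0.39). SPATA25 (XM_001928964.1), at 3.85, 7.30 and 15.5 CPM in testis, was the only member with 0 counts in all livers, which makes it at least 231-fold higher in testis with the 3-count floor taken over the livers together.

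A smaller set of members was expressed in liver as well. The mean liver level was at least 1 CPM in 7 members and below 1 CPM in 18. The 7 were ODF2 and 6 SPATA genes. SPATA24 (NM_001177922.1) had a mean of 11.3 ± 2.17 CPM in liver (SD, n = 10) and 210 ± 55.3 CPM in testis. SPATA4 (NM_001177923.1) had 9.83 ± 4.25 CPM in liver and 216 ± 43.4 CPM in testis. SPATA20 (NM_001159313.1), a thioredoxin-like protein, had 7.87 ± 2.83 CPM in liver and 404 ± 146 CPM in testis, and SPATA7 (NM_001177908.1), which sits at the connecting cilium of photoreceptors, had 7.91 ± 2.42 and 977 ± 227 CPM. In all of these genes the lowest testis lay above the highest liver.

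The 2 members with the smallest difference between the tissues were both AAA-type ATPases with a role in ribosome maturation, a process of every growing cell. SPATA5 (NM_001177913.1) was at 18.6, 28.4 and 34.5 CPM in testis and at 5.50, 9.35 and 11.9 CPM in liver, a log2 difference of 1.54 (SE 0.17, adjusted p = 6.79e-09 by edgeR's quasi-likelihood test). SPATA5L1 (NM_001177911.1) was at 2.40, 3.23 and 4.28 CPM in testis and at 0.734, 1.55 and 3.67 CPM in liver. SPATA5L1 differed by 0.90 on the log2 scale (SE 0.24, adjusted p = 0.00165 in the same edgeR test), and its highest liver, high replicate 5, lay inside the range of the testes.

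The traces in liver were uneven between libraries. In 13 members the mean liver level was under 0.3 CPM, and these had 119 counts over the 10 livers, of which 56, or 47.1%, lay in liver low replicate 1. In CPM the sum over these 13 members was 5.96 in liver low replicate 1 and 3.12 in liver high replicate 2, with 0.508 to 1.12 in the other 8 livers. The spermatid markers that were as rare in liver, 10 of the 18, had 53 of their 114 liver counts in the same low replicate 1 and summed to 5.64 CPM there, to 3.12 CPM in liver high replicate 2 and to between 0.189 and 1.64 CPM in the other livers. In liver low replicate 1 the 13 members reached between 0 and 0.833% of their own mean in testis, with a median of 0.315%. In the other 8 livers, 4 of the 13 had no count. The source of these counts was not tested. Without both livers, a choice made after seeing the data, 25 of 25 members were still called higher in testis and their median log2 difference was 8.65, or 8.06 with the 4 members that had no count left at their lower bounds. The pooled ratios were then 34610 for TEKT2, 15130 for SPATA18, 16410 for SPATA19 and 15360 for CATSPERZ, each from 1 or 2 liver counts, and the lower ends of their counting intervals were 9582, 4187, 4542 and 2756.

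Among the 10 testes the members varied together. Pearson's r between 2 members over the 10 testes, on log2(CPM + 0.5), had a median of 0.549 over the 300 pairs, and 97.7% of the pairs were above 0. It was 0.533 when the androstenone group means had been removed. Over 10056 IDs with a mean of at least 4 CPM in testis, the median was 0.0013 and 50.1% of pairs were above 0. The pairs share the same 10 libraries. Without testis low replicate 2, the median r of the members was 0.197 and 66.7% of the pairs were above 0, against 0.0016 and 50.1% over all IDs. SPATA17, SPATA7 and SPAG6 had the highest median r with the other members, 0.726, 0.718 and 0.703, and SPATA5 had the lowest, 0.229.

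**Figure D2:**
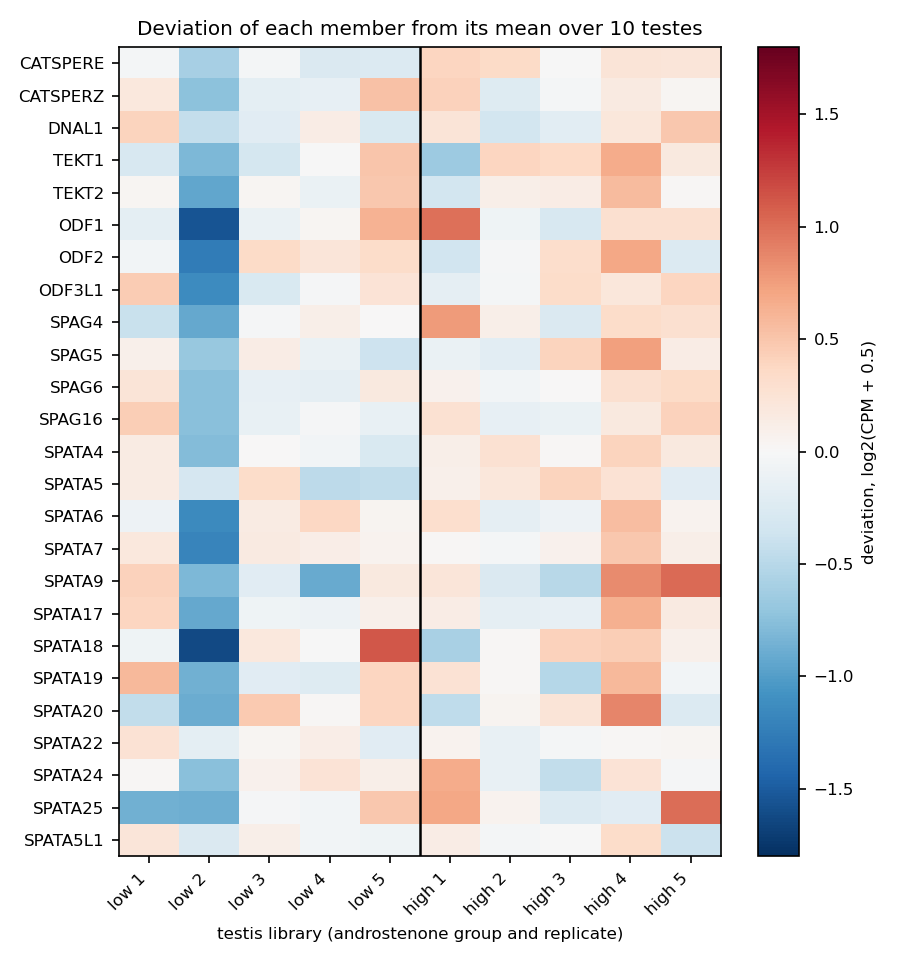
Deviation of each of the 25 members (rows, grouped by family) from its own mean over the 10 testes, on log2(CPM + 0.5), with red above and blue below the mean; columns are testis libraries, low androstenone left and high androstenone right of the line. Low replicate 2 is below the mean for all 25 members and high replicate 4 is above it for 24.

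Testis low replicate 2 was the lowest of the 10 testes for 21 of the 25 members, and no member was above its own mean there. Over all 13649 IDs with at least 1 CPM in testis, 24.9% had their lowest value in this library. Its members reached between 27.3% and 87.2% of their mean over the other 9 testes, with a median of 49.9%, where the median over all IDs was 97.7%. SPATA18 and ODF1 had the smallest shares, 27.3% and 28.7%, followed by ODF2 with 37.2%. SPATA22 kept 87.2%, SPATA5L1 78.7% and SPATA5 76.8%, and these were 3 of the 4 members whose lowest value lay elsewhere, with SPATA9 as the other one.

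Markers of cell types shifted in the same testis. Of the 18 spermatid markers, 17 were lowest there, with a median of 44.6% of their mean over the other testes. Of 6 spermatocyte markers, 3 were lowest there, with a median of 81.3%. Only markers with a mean of at least 1 CPM in testis were counted. These were 4 of the 8 tested spermatogonia markers and 10 of the 11 tested Sertoli cell markers. Among them, 3 spermatogonia and 5 Sertoli cell markers were highest there, with medians of 176% and 159%. Of the Sertoli cell markers 1 was lowest there, and DMRT1 is on both lists. The share of all IDs with their highest value in this library was not computed. Leydig cell markers had a median of 84.7% over 11 IDs, of which 0 were lowest and 1 was highest. The part of these shifts in the members' level was not tested.

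**Figure D3:**
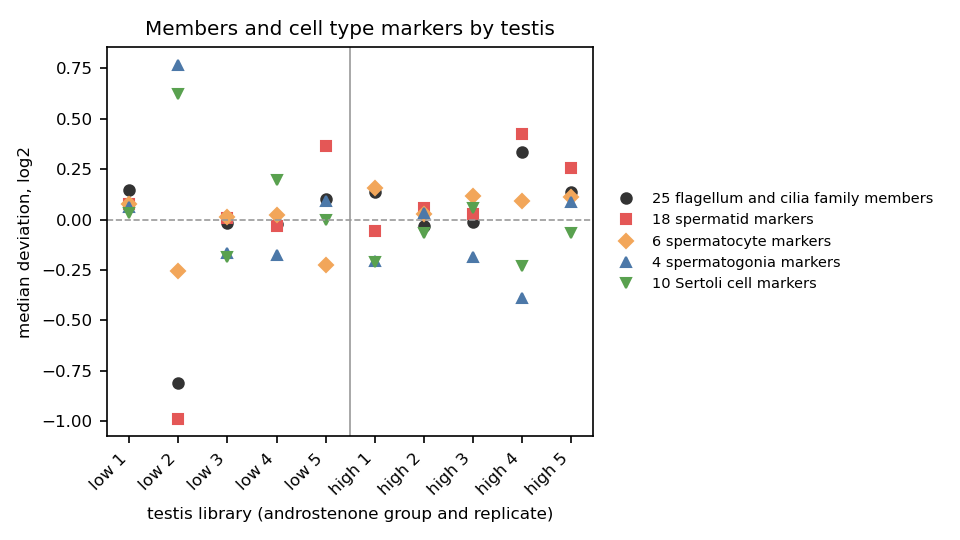
Median deviation from the mean over the 10 testes, on the log2 scale, of the 25 members and of marker lists for spermatids, spermatocytes, spermatogonia and Sertoli cells, for each testis library (low androstenone left, high androstenone right of the line). Only markers with a mean of at least 1 CPM in testis are used. In low replicate 2 the members lie at -0.81 and the spermatid markers at -0.99, while spermatogonia and Sertoli cell markers lie at 0.77 and 0.62.

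At the other end, testis high replicate 4 was the highest testis for 10 members and lay above the mean of 24. It had a median deviation of 0.34 on the log2 scale and a summed level of 9677 CPM. The shares of all IDs that were highest or above their mean in this library were not computed. Its spermatid markers had a median deviation of 0.43 and its spermatogonia markers of -0.39. The remaining 8 testes had median member deviations between -0.03 and 0.15. The coefficient of variation over the 10 testes had a median of 26.6% over the members and 23.3% over the 10056 IDs above 4 CPM. SPATA9, SPATA25, SPATA18 and ODF1 varied most, with 46.8%, 45.4%, 44.0% and 40.9%, and SPATA22 varied least with 9.88%. The range of SPATA18 was 6.70-fold from low replicate 2 to low replicate 5, while that of SPATA22 was 1.38-fold.

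High and low androstenone testes were compared to ask whether the families followed the steroid level, which was the contrast of the study. No member was called, and edgeR's quasi-likelihood test gave no member an adjusted p smaller than 0.438. Over all 18340 IDs tested in testis, 0% were called by the same rule. At an unadjusted p under 0.05, 1 member was higher and 0 were lower in the high androstenone group, beside 3.17% and 6.31% of all IDs. DESeq2 called 0 members and 0.284% of all IDs at the adjusted threshold. At an unadjusted p under 0.05 it had 2 members higher and 0 lower, beside 3.91% and 5.63% of all IDs. Standard errors of the log2 fold changes from edgeR lay between 0.15 and 0.35, with a median of 0.23. The study itself, using DESeq with a GLM check, did report genes that differed in testis between these groups, none of them a member. It followed some of them by qRT-PCR in the sequenced boars and in an independent group of high and low androstenone boars. The study reports a similar pattern in both.

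The estimates leaned to one side. The log2 fold change was above 0 in 23 of the 25 members, beside 48% of all IDs, with a median of 0.19. Only SPATA18 (-0.06, SE 0.35) and SPATA22 (-0.05, SE 0.15) lay below 0. Without testis low replicate 2 it was above 0 in 16 members with a median of 0.05, and without testis high replicate 4 in 18 members with a median of 0.10. Without both, a choice made after seeing the data and by the members' own level, 13 members were above 0 and the median was 0.0019. The spermatid markers had a like pattern in the same testes, with 17 of 18 above 0, a median of 0.18 and 0 at an unadjusted p under 0.05. The summed level of the members was 6498 ± 1955 CPM in the low and 7221 ± 1410 CPM in the high androstenone group (SD, n = 5 each), and the groups overlapped.

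**Figure D4:**
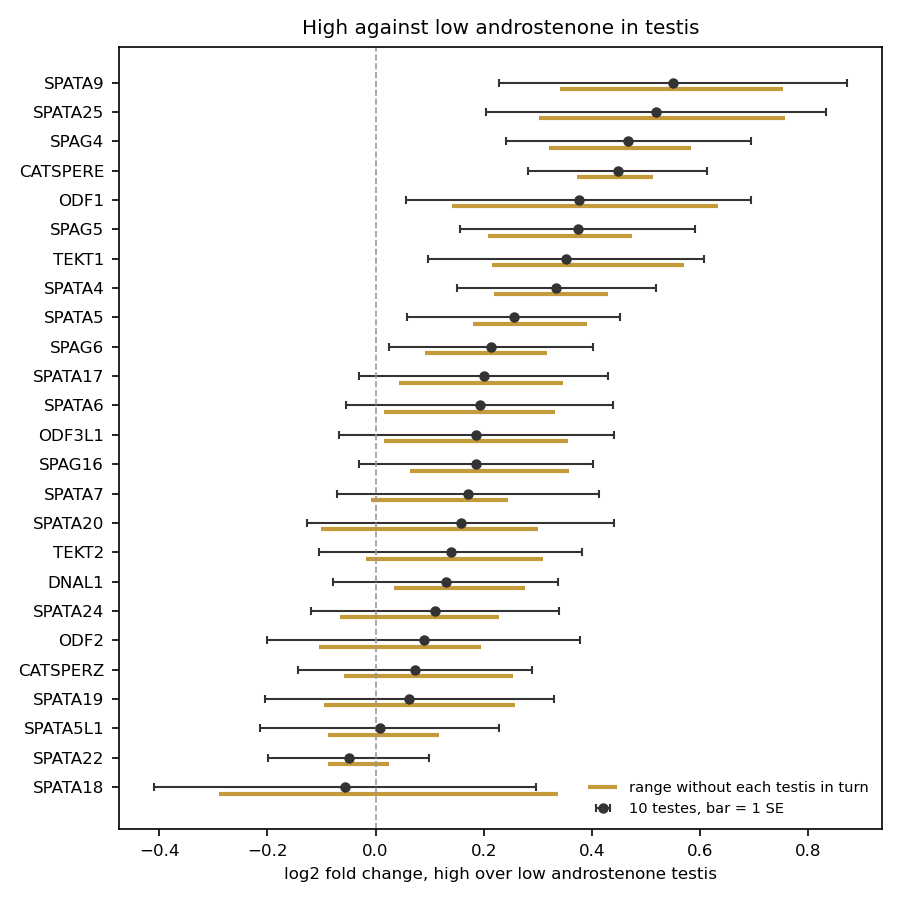
Log2 fold change of each member, high over low androstenone testis, from edgeR (points, bars of 1 standard error, 5 against 5 boars), with the range of the estimate when each testis is left out in turn (lower line). In 23 members the point lies right of 0, and in 10 members the range reaches over 0.

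CATSPERE was the member with the smallest p and the only one whose groups did not overlap. The 5 low androstenone testes had 19.4, 12.9, 19.3, 16.5 and 16.6 CPM, and the 5 high androstenone testes had 25.9, 25.2, 19.6, 23.4 and 23.0 CPM. Every high value thus lay above every low value, though the lowest high value, 19.6, was close to the highest low value, 19.4. Without overlap, 0.758% of all IDs were higher and 1.1% lower in the high group. The group means of CATSPERE were 16.9 ± 2.64 and 23.5 ± 2.45 CPM (SD, n = 5 each), and the log2 fold change was 0.45 (SE 0.16), for which edgeR's quasi-likelihood test gave an unadjusted p of 0.0159 and an adjusted p of 0.438. When each testis was left out in turn, this estimate ranged from 0.37 to 0.51. An exact two-sided permutation test gave p = 0.00794, the smallest that 5 against 5 boars allow. Groups that do not overlap always give this p, so it restates the separation and adds no further support. By this test, 2 of the 25 members had p under 0.05, both higher in the high group, beside 4.06% of all IDs higher and 4.9% lower. With library sizes alone as the scale, the groups of CATSPERE did not overlap either.

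SPATA4 was the other member with an exact permutation p under 0.05. The low androstenone testes had 234, 123, 212, 203 and 174 CPM and the high androstenone testes 227, 256, 214, 278 and 238 CPM. Of the high values, 3 lay above all low values, and the groups overlapped. The means were 189 ± 42.9 and 242 ± 25.2 CPM (SD, n = 5 each; exact two-sided permutation test, p = 0.0317), and the log2 fold change was 0.33 (SE 0.18, adjusted p = 0.575 by edgeR's quasi-likelihood test), or 0.22 without testis low replicate 2.

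**Figure D5:**
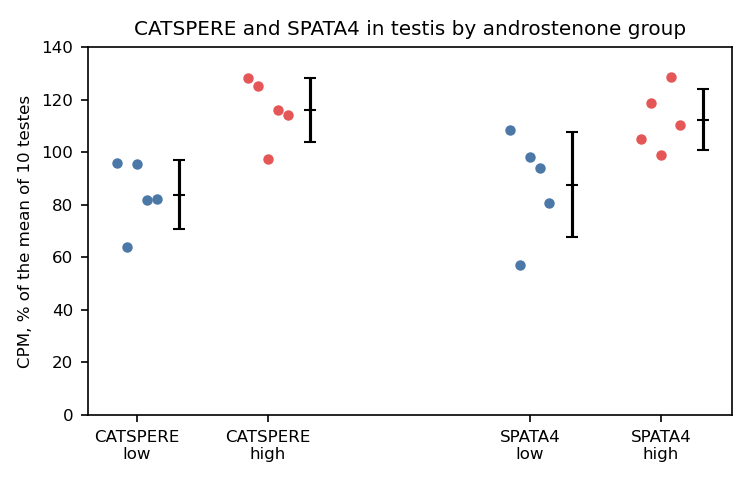
CATSPERE and SPATA4 in each testis by androstenone group, as percent of the gene's mean over the 10 testes, with the group mean and SD beside the 5 points of each group; the axis starts at 0. The CATSPERE groups do not overlap (low 12.9 to 19.4, high 19.6 to 25.9 CPM), while those of SPATA4 do.

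SPATA9 had a log2 fold change of 0.55 (SE 0.32), with 35.1, 14.9, 22.8, 13.8 and 29.9 CPM in the low and 30.6, 21.8, 18.6, 48.1 and 53.9 CPM in the high androstenone testes, so that high replicates 4 and 5 stood above the rest. SPATA25 had 0.52 (SE 0.31) and SPAG4 0.47 (SE 0.23), where 3 of 5 high androstenone testes lay above all low ones in SPAG4. The estimate was 0.38 (SE 0.32) for ODF1, 0.37 (SE 0.22) for SPAG5, 0.35 (SE 0.26) for TEKT1 and 0.26 (SE 0.20) for SPATA5. The remaining members had absolute estimates of at most 0.21, among them TEKT2 with 0.14 (SE 0.24), ODF2 with 0.09 (SE 0.29), CATSPERZ with 0.07 (SE 0.22) and DNAL1 with 0.13 (SE 0.21). Changes of the size of these errors were not detectable with 5 boars a group.

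The testis libraries fell into 2 classes by depth, 5 with over 10000000 counts and 5 with fewer. Among the deeper libraries, 2 high and 3 low, 15 members were higher in high androstenone and the median difference was 0.06 on the log2 scale. In the shallower class, 3 high and 2 low, it was 24 members and 0.64, and 14 members and 0.05 without low replicate 2, when a single low library remained. CATSPERE was higher in high androstenone by 0.54 in the deeper and 0.46 in the shallower class, and by 0.18 in the latter without low replicate 2.

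Markers of other cell types in the testes were read beside these values. None of them was called between the androstenone groups. At an unadjusted p under 0.05, 5 of 12 leukocyte markers, 1 of 11 Sertoli cell markers and 1 of 8 spermatogonia markers were lower in high androstenone, and 0 of these lists' markers were higher, where the shares over all IDs were 6.31% and 3.17%. The spermatogonia marker was UCHL1, with a log2 fold change of -0.98 (SE 0.20, adjusted p = 0.302 by edgeR's quasi-likelihood test). Of 11 Leydig cell markers, 3 were higher and 3 lower at that level. Of the lists for cells less typical of testis, the erythrocyte marker HBB (-1.71, SE 0.52) and 1 of 6 cholangiocyte markers, SPP1 (-1.12, SE 0.43), were lower, and 1 of 13 hepatocyte markers, AMBP (1.36, SE 0.59), was higher. None of the 18 spermatid and 6 spermatocyte markers reached that level, and none of the 5 ciliated epithelium IDs, among which TPPP3 and FAM183A are repeated. The part of all these markers in the members' values was not tested.

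Other genes of the axoneme, cilium and sperm tail were taken from a list of 184 symbols, of which 41 were measured with 44 reference IDs. Of these IDs, 39 were called higher in testis, 2 were called lower and 3 passed in neither direction, with a median log2 difference of 4.93. RSPH9 of the radial spokes differed by 9.07 (SE 0.37), WDR63 by 7.48 (SE 0.22), CCDC39 of the axonemal ruler by 5.79 (SE 0.26) and FSCB of the fibrous sheath by 11.93 (SE 0.41). Those lower in testis were DYNLRB1, a light chain of cytoplasmic dynein, with -1.41 (SE 0.44), and MKKS, a chaperonin-like protein of the Bardet-Biedl group, with -1.63 (SE 0.17). With library size as the only scale, their differences were -0.41 and -0.63. Genes of intraflagellar transport, used by primary cilia too, differed less, with 3.32 (SE 0.19) for IFT74 and 2.62 (SE 0.19) for IFT22. The 3 IDs of IFT43 differed by 1.87, 1.87 and 1.89. Of the 5 tested IDs of the ciliated epithelium list, all were called higher in testis.

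Between the androstenone groups, 0 of the 44 IDs were called and 1 was at an unadjusted p under 0.05, IFT22 with a log2 fold change of 0.55 (SE 0.22, adjusted p = 0.452 by edgeR's quasi-likelihood test). The fold change was above 0 in 27 of the 44 with a median of 0.05. In testis low replicate 2, 30 of the 44 had their lowest value, with a median of 63.4% of their mean over the other testes.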

How the data were processed

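RNA-Seq counts of 10 testis and 10 liver samples were used, 5 per androstenone group and tissue. The authors sequenced 100 bp single reads on 1 lane per sample, called them with CASAVA 1.7 (as in the submitters' processing notes, which also name SAMtools), aligned them with BWA to RefSeq mRNA and UniGene sequences of Sscrofa 9.2 and deposited counts per reference ID without normalization. How reads fitting several sequences were counted is not given in the sources used here. Each file holds 21785 lines for 21755 IDs, and 10 IDs listed 4 times were used once. Symbols came from a RefSeq table of another assembly, used for names only, so coordinates, transcript lengths and sequences are not given, and levels are not compared between genes.

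Tests were run with edgeR 4.0.16 in R 4.3.3 (TMM, quasi-likelihood test, Benjamini-Hochberg adjustment over all IDs kept, those whose counts over the libraries of the fit added up to 10 or more). All 25 members passed this filter in both fits. SPATA25, ODF1, SPAG16, ODF3L1, SPAG6, CATSPERZ, SPAG4 and TEKT1 had fewer than 10 liver counts. They thus entered the fit of both tissues only through testis, where they were high. Testis and liver were compared over 20 libraries in 4 groups, and androstenone groups over the 10 testes. The libraries of a boar were not fitted as pairs, since the labels do not state which belong together. The floor is 3 counts and the pseudocount 0.5 CPM. Ratios for genes with 1 to 3 liver counts have exact 95% intervals conditional on the summed counts (Clopper-Pearson), which cover counting error only. Exact two-sided permutation tests used log2(CPM + 0.5). The procedure was tested on simulated data.

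The alternatives were DESeq2 1.42.0, RLE factors, 2 filters, library size only, summed IDs, a replicate block, robust dispersion, a depth covariate, a fit of all 20 samples and leaving out each replicate. Leaving out 2 livers or 2 testes together was added after seeing the data. Members, marker lists and the rule for named genes were chosen with earlier results of these data known. The rule named, per family, the 2 members highest in testis, the 8 with the smallest p for androstenone, members whose groups did not overlap, the 5 highest in liver and the 4 most variable in testis, 19 in all, and the other 6 were named to account for every member. Python 3.11.15, numpy 2.4.6, scipy 1.17.1, pandas 2.3.3 and matplotlib 3.10.9 were used.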

Additional observations from a re-analysis of the deposited data

Results flagged for a closer look

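A sample was picked out when its gap to the nearest of the other 4 samples of its group was large against the range of the group (Dixon's test at 95%). Over the 25 members in 2 testis groups and the summed level in 4 groups, 54 groups were checked and 5 were picked out. Chance alone picks out about 1 in 20 groups. SPATA7 was at 412.5 CPM in testis low replicate 2, while the other low androstenone testes lay between 985 and 1077 CPM. SPATA7 was at 1324 CPM in testis high replicate 4, with the other high androstenone testes between 925 and 1012 CPM. The summed level of the members was 3174 CPM in testis low replicate 2 against 6850 to 8343 CPM in the rest of its group, and 9677 CPM in testis high replicate 4 against 6236 to 7119 CPM. In liver, high replicate 5 had a summed member level of 51.69 CPM, just below the 54.0 to 54.8 CPM of the other high androstenone livers.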

How the results depend on the processing

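All 25 members were called higher in testis under every alternative run, and 0 of 725 single values changed sign or lost the call. Their median log2 difference was 8.56, 9.53 with library size only (which moved the median of all IDs from 0.31 to 1.28) and between 8.41 and 9.02 without each library in turn. For androstenone, 0 members were called under every alternative. The number at an unadjusted p under 0.05 was 1, and 2 with RLE factors, DESeq2 or the replicate block, 3 with the depth covariate, 0 with all 20 samples in 1 fit and between 1 and 4 without each testis in turn. Of 500 single values 30 changed sign, in 12 members. SPATA18 became 0.12 with the replicate block and 0.071 with the depth covariate. Without each testis in turn the ranges were -0.058 to 0.25 for CATSPERZ, -0.10 to 0.20 for ODF2, -0.29 to 0.34 for SPATA18, -0.095 to 0.26 for SPATA19, -0.10 to 0.30 for SPATA20, -0.088 to 0.025 for SPATA22, -0.065 to 0.23 for SPATA24, -0.089 to 0.12 for SPATA5L1, -0.0088 to 0.25 for SPATA7 and -0.017 to 0.31 for TEKT2. Without testis low replicate 2 and high replicate 4 together, the values were -0.080 for CATSPERZ, -0.29 for ODF2, -0.10 for SPATA17, -0.24 for SPATA19, -0.25 for SPATA20, -0.058 for SPATA24, -0.14 for SPATA5L1, -0.11 for SPATA6, -0.11 for SPATA7 and -0.16 for TEKT2. The cause of these changes was not tested beyond the libraries left out. Same-numbered samples did not deviate together in every pair. Mean and lowest r over pairs were 0.103 and -0.035 for high and low testes, which are different boars. They were 0.0764 and -0.035 for low testes and livers, and 0.187 and -0.041 for high testes and livers. The means for unlike numbers were -0.029, -0.020 and -0.050, but centring within each group ties these to the same-number means. The highest pair reached 0.42, and 2 of 5 samples were closest to their own number each time. These values cannot decide the pairing, since a boar's testis and liver need not deviate together. The numbers were not taken as a pairing because the labels do not state one. With the replicate block the median log2 difference between tissues was 8.47, and for androstenone the median was 0.24. With 5 boars a group and standard errors near 0.23, smaller androstenone differences are beyond these data.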
